A study of Mus musculus with 5 samples.

Results

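The collagen genes of the mouse were read across 3 kinds of cells on 5 single-colour microarrays. Members were set by name, as the probes whose gene symbol is Col, a number, a and a number. The family itself was picked with earlier results of these data known. This rule of names was met by 50 probes for 44 genes, out of 26423 probes on the array and 19084 genes with a named probe. For each gene the probe with the highest mean intensity over the 5 arrays was used. The study set out to turn fibroblasts into Leydig-like cells with defined factors. MEF, mouse embryonic fibroblasts, are represented by 1 array; they came from embryos at 13.5 days post coitus after removal of head and viscera, and carried a mock vector. The iLC group, induced Leydig-like cells, is 2 arrays of such embryonic fibroblasts transduced with the transcription factors Dmrt1, Gata4 and Nr5a1. The labels give 12 hr of lentivirus, followed by a reprogramming medium in which IGF was present at 50 ng/ml and the growth factor PDGFAA at 10 ng/ml. The Leydig group, also 2 arrays, was isolated from the testis at an age of 56 days; these interstitial cells make androgens. The sources used here do not give the strain, the medium of the mock cells, the length of the iLC culture or any pooling of animals. The labels call the arrays of a pair replicates without naming a culture or animal for each, so p-values here cover only the spread between these arrays, which may be technical. The 2 arrays of each pair also carry different short codes, F3 and F5 for iLC and MP and MA for Leydig cells. The labels do not explain these codes, and whether they mark different preparations is not known. MEF had no replicate, and its array was assumed to vary like the pairs.

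Collagens are proteins of the extracellular matrix built as triple helices of 3 chains, alike or different, and every chain has its own gene. Fibrillar collagens such as types I, III and V form the cables of connective tissue and are the main product of fibroblasts. Type IV forms the sheet-like network of basement membranes, FACIT collagens sit on the surface of fibrils, and type VI forms beaded filaments near cells. Multiplexins lie in and near basement membranes and transmembrane collagens are anchored in the cell surface. In the testis, Leydig cells lie in a loose interstitium next to vessels and to the peritubular myoid cells, which with Sertoli cells lay down the basement membrane of the tubules.

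The arrays had medians of 1111 to 1230 intensity units, and their number limits the precision of every value. In the checks of cell identity, Nr5a1, Hsd3b1 and Cyp17a1, genes of steroidogenic cells, were higher in Leydig cells than in MEF (limma, adjusted p = 0.00349, 0.00308 and 0.0236). In iLC, Hsd3b1 was higher than in MEF (5.18 ± 0.56 (SE), adjusted p = 0.0331), Star differed by 6.51 without passing (adjusted p = 0.107), and Cyp17a1 differed by -0.38. The probes of the delivered factors did not show the transduction: iLC minus MEF was -0.07 for Dmrt1, -0.91 for Gata4 and 0.06 for Nr5a1 (limma, adjusted p = 0.954, 0.368 and 0.964), and whether these probes lie within the delivered sequences is not given. Cyp11a1 read 509.8 and 451 on the Leydig arrays, under its 562 on the MEF array, and Insl3 and Lhcgr had no named probe. The 2 Leydig arrays differed from each other. Prm1, a protamine of spermatids, read 6235 on Leydig replicate 1 and 141591 on replicate 2, and the summed intensity of 8 germ cell markers was 25969 and 379829, against 8455 to 10480 on the other 3 arrays. Star, which carries cholesterol into mitochondria, read 1368 and 19703, and Cyp17a1 40614 and 197728. Summed intensities of 8 fibroblast markers were 244407 and 147151 on the Leydig arrays, 592138 and 616059 on the iLC arrays and 1002590 on the MEF array. Of these 8, 6 were called lower in Leydig cells than in MEF and 1, Pdgfra, was called higher, and Pdgfra alone read 180686 and 92654 on the Leydig arrays. Those of 6 peritubular myoid and smooth muscle markers were 34193 and 49711, 479772 and 538196, and 595588 in the same order, with 5 of 6 called lower in Leydig cells than in MEF, and no probe of these 3 lists read 0 or below. The 7 measured macrophage markers summed to 158209 (MEF), 44202 and 91945 (iLC) and 15247 and 8966 (Leydig), with 5 of 7 called lower in Leydig cells than in MEF. The part of these markers in the collagen results was not tested. In such bulk samples fewer cells of a type and less RNA per cell cannot be told apart.

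Collagen genes were called in both directions between Leydig cells and each of the other groups, and 1 was called between iLC and MEF. The comparisons with MEF rest on 1 array of that group and have larger standard errors, so counts of calls are not to be set against each other across comparisons. Differences below are on the log2(intensity + 16) scale, with a gene called higher or lower at a Benjamini-Hochberg adjusted p under 0.05 over all 19084 genes in a limma fit. Between iLC and MEF 0 of 44 collagen genes were called higher and 1 lower, Col8a1. The background over all genes was 0.283% higher and 0.288% lower, or 0.571% either way. Between iLC and Leydig cells 7 were called higher in iLC and 6 lower, or 15.9% and 13.6%, against a background of 5.74% and 5.69%, so that 13 were called where 11.4% of all genes were. Between Leydig cells and MEF 4 were higher in Leydig cells and 7 lower, or 9.09% and 15.9%, against 3.39% and 3.99%, so that 11 were called where 7.38% of all genes were. An unadjusted p under 0.05 was found for 6, 17 and 16 of the 44 in these 3 comparisons, against 15.8%, 26.8% and 19.9% of all genes. The median difference of the 44 genes was -0.17 between iLC and MEF, 0.14 between iLC and Leydig cells and -0.24 between Leydig cells and MEF, against -0.11, -0.03 and -0.10 over all genes. The signs of these medians turned with the processing, the first with quantile normalization (0.05), the second with values under each array's 20th percentile set to that level (-0.07) and the third without Leydig replicate 2 (0.09). Both iLC arrays read above both Leydig arrays for 16 of 44 genes and below for 12, or 36.4% and 27.3%, against 28.9% and 29.1% of all genes, so such separation of the pairs is nearly as frequent among all genes. The comparisons share arrays, and their values for a gene are given side by side below.

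**Figure D1:**
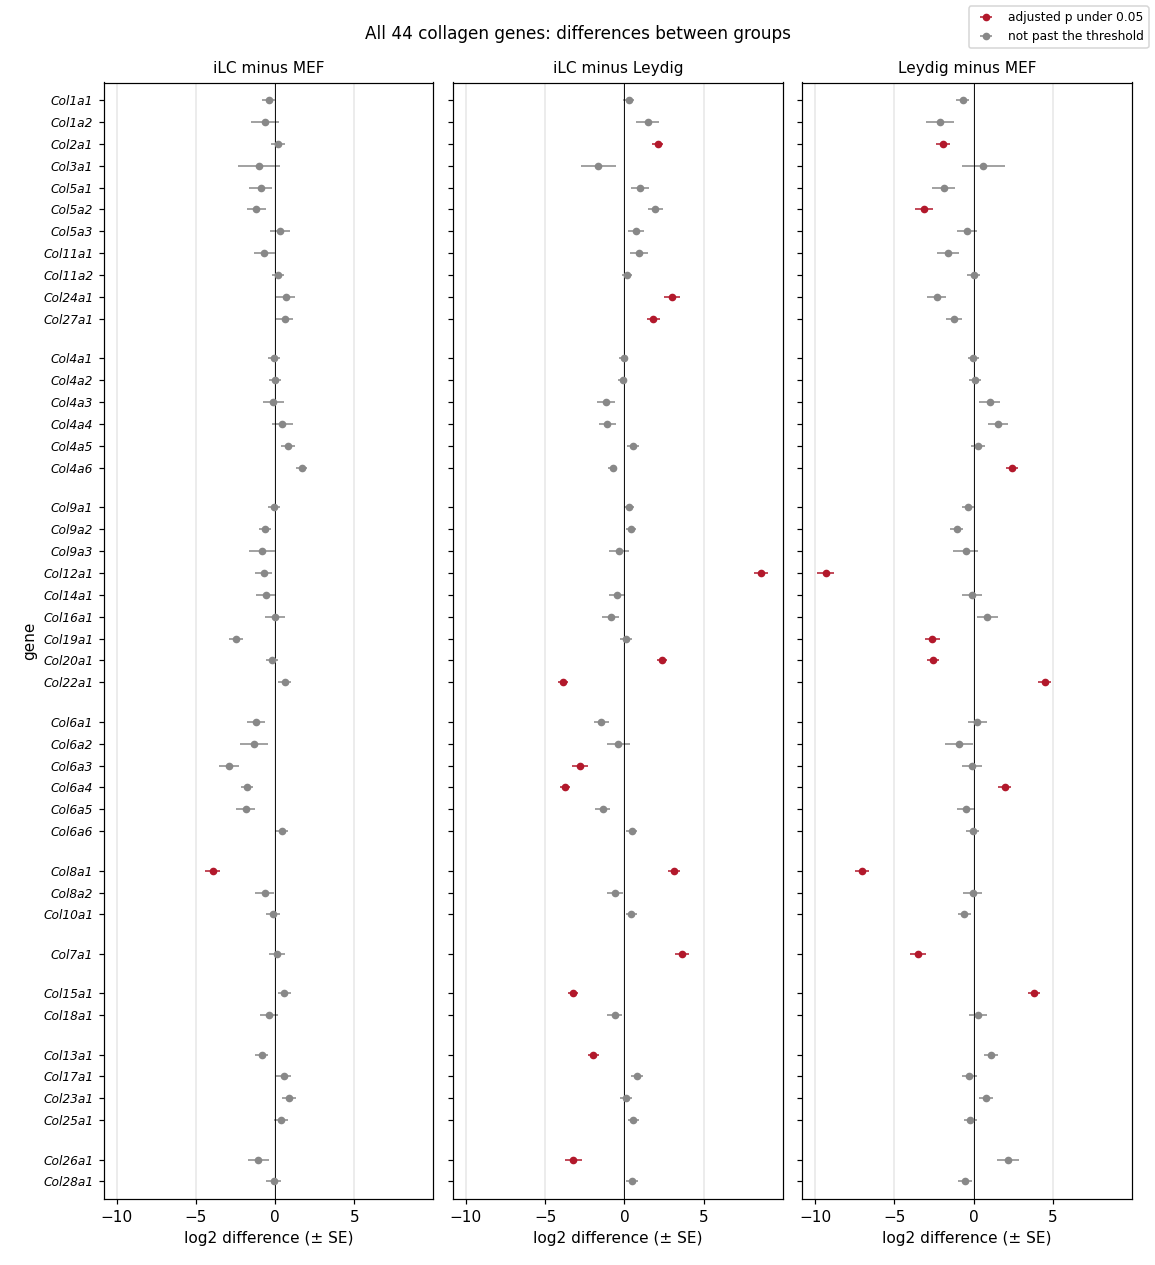
Log2 differences (± SE, horizontal axis, 1 scale in all panels) of the 44 collagen genes (vertical axis, grouped by class) between iLC and MEF, iLC and Leydig cells, and Leydig cells and MEF; red points passed an adjusted p under 0.05. Red points are 1, 13 and 11 in the panels from left to right, and Col12a1 lies farthest from 0 at 8.61 and -9.33.

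The fit has 2 residual degrees of freedom, and 1 of them is lost when an array is left out. Of the 13 collagen calls between iLC and Leydig cells, those of Col12a1, Col22a1, Col6a4 and Col15a1 were kept when any 1 of the 4 replicated arrays was left out. Of the 11 between Leydig cells and MEF, those of Col12a1 and Col8a1 were. Without Leydig replicate 2, the array with the higher germ cell transcripts, 1 collagen gene was called above the Leydig level in iLC and 5 below it, and 0 were higher and 2 lower in Leydig cells than in MEF (limma, adjusted p under 0.05). Calls over all 19084 genes fell in the same fit, to 336 higher and 368 lower from 1095 and 1086, and to 77 higher and 72 lower from 646 and 762. Between iLC and MEF no gene of the 19084 was called with any 1 array left out, so the loss of a call there says nothing about the gene.

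The FACIT class held the widest difference of the family. Col12a1, a chain found on type I fibrils of dense connective tissue, read 101771 for MEF, 85054 and 44719 for the iLC pair and 177 and 113 for the Leydig pair. The MEF and iLC arrays were far above the Leydig arrays, both of which lay under their array's 20th percentile. The log2 difference was 8.61 ± 0.43 (SE), adjusted p = 0.000908 between iLC and Leydig cells and -9.33 ± 0.53 (SE), adjusted p = 0.00137 between Leydig cells and MEF. With values under each array's 20th percentile set to that level, the differences were 7.68 and -8.41, so part of their size depends on dim readings. Col22a1, a chain of tissue junctions such as that of muscle and tendon, went the other way, with 179.9 for MEF, 342 and 233 for the iLC pair and 4082 and 4680.4 for the Leydig pair. It was the FACIT gene called higher in Leydig cells, by 4.49 ± 0.41 (SE), adjusted p = 0.00441 over MEF (3.72 with the floor at the 20th percentile, under which its MEF reading lay, and 5.32 with the low ends of the arrays aligned at their first percentile) and, as iLC minus Leydig, -3.88 ± 0.34 (SE), adjusted p = 0.00197. The call against MEF was lost without Leydig replicate 2 (highest adjusted p = 0.0531).

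Col20a1 followed Col12a1 at a lower size, with 2547 for MEF, 2284 and 2136 for the iLC pair and 484 and 362 for the Leydig pair. It differed by 2.36 ± 0.32 (SE), adjusted p = 0.00746 between iLC and Leydig cells and by -2.56 ± 0.39 (SE), adjusted p = 0.0163 between Leydig cells and MEF. The first call was lost when iLC replicate 1 was left out, or Leydig replicate 2 (highest adjusted p = 0.0653) and the second without either Leydig array (highest adjusted p = 0.0858). Col19a1 was dim, with 424 for MEF, 47.3 and 81.5 for the iLC pair and 68.7 and 46.2 for the Leydig pair, and was lower in Leydig cells than in MEF (-2.60 ± 0.45 (SE), adjusted p = 0.0234). Its MEF reading was the highest of the 5, but that call was lost with the floor at the 20th percentile (-0.55, adjusted p = 0.389) and without either Leydig array (highest adjusted p = 0.121). Col19a1 also differed by -2.49 between iLC and MEF without passing (adjusted p = 0.0826), and passed with median centring and with quantile normalization (adjusted p = 0.0456 and 0.0444). Col16a1, a widely expressed FACIT chain, read 17272 for MEF, 15239 and 18996 for the iLC pair and 52834 and 18429 for the Leydig pair. The second Leydig array lay with the MEF and iLC arrays and the first stood above them, and no difference passed. Among the 9 FACIT genes, in iLC 2 lay above and 1 below the Leydig level by call (22.2% and 11.1%, against 5.74% and 5.69% of all genes). In Leydig cells 1 was higher and 3 lower than in MEF (11.1% and 33.3%, against 3.39% and 3.99%). The class medians were 0.11 and -0.51, and the first turned to -0.08 with the floor and -0.20 without iLC replicate 2. The second was -1.25 without Leydig replicate 2.

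**Figure D2:**
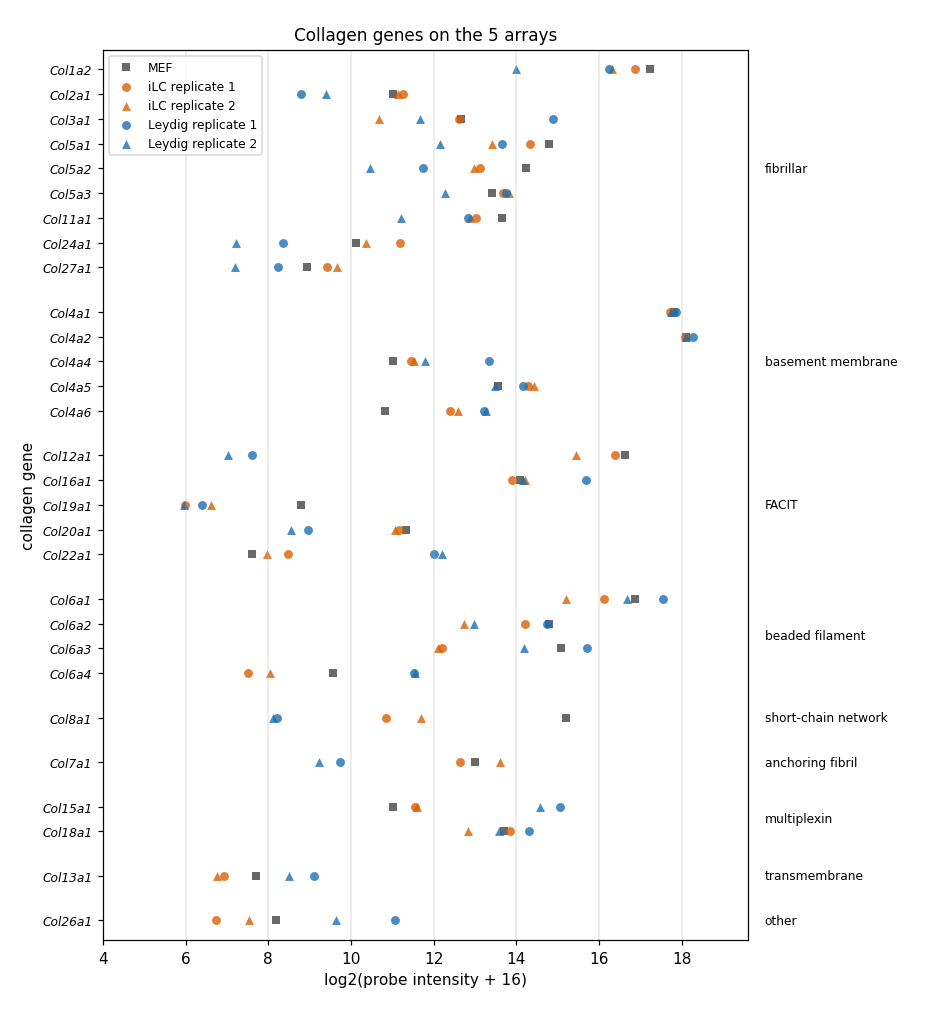
Log2(intensity + 16) (horizontal axis) of the 29 collagen genes that were called in a comparison or had a group mean of at least 3000 (vertical axis, by class) on the MEF array (grey), the iLC arrays (orange) and the Leydig arrays (blue), with 1 point for each array. Col4a1 and Col4a2 lie together on all 5 arrays, while Col12a1, Col8a1 and Col7a1 have their Leydig points far to the left and Col22a1 and Col15a1 far to the right; levels of different genes are different probes and are not to be compared.

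Fibrillar collagen calls all pointed to lower levels in Leydig cells, and they were few. Of 11 genes, 3 were called above the Leydig level in iLC and none below it (median 0.97), 2 were lower in Leydig cells than in MEF and none higher (median -1.61), and none passed between iLC and MEF (median -0.42). These calls are 27.3% and 18.2% of the class, against 5.74% and 3.99% of all genes, and 0.571% of all genes passed between iLC and MEF. The first median was 1.73 without Leydig replicate 1 and 0.22 without Leydig replicate 2, and the second -0.80 without Leydig replicate 2. Col1a2, the second chain of type I collagen, read 152861 for MEF, 120394 and 81114 for the iLC pair and 77886 and 16129.5 for the Leydig pair. The MEF array was highest and Leydig replicate 2 stood apart from the rest, and no difference passed (1.48 ± 0.73 (SE), adjusted p = 0.262 between iLC and Leydig cells). That difference was 2.61 without Leydig replicate 1 (adjusted p = 0.04999, just under the threshold) and 0.34 without Leydig replicate 2 (adjusted p = 0.742). The probe of Col1a1, the other chain of type I, read 542 for MEF, 332 and 484 for the iLC pair and 342 and 323 for the Leydig pair. It lay under the median of every array, fibroblasts included, although type I collagen is a main product of fibroblasts. The class median of -0.42 between iLC and MEF is the value of this dim Col1a1 probe.

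Type III and type V chains often read apart between the arrays of a group. Col3a1, whose product forms fine fibrils in soft tissue and vessels, read 6469.7 for MEF, 6201 and 1635 for the iLC pair and 30186 and 3266 for the Leydig pair. The 2 Leydig arrays enclosed the other 3 except iLC replicate 2, and the difference between iLC and Leydig cells (-1.64 ± 1.10 (SE), adjusted p = 0.406) went from -0.04 without Leydig replicate 1 to -3.24 without Leydig replicate 2. Col5a2, a chain that sets the width of type I fibrils and the genomic neighbour of Col3a1, read 19302 for MEF, 8839 and 8052 for the iLC pair and 3428 and 1383 for the Leydig pair. Here MEF was highest and both Leydig arrays lowest, with -3.14 ± 0.58 (SE), adjusted p = 0.0286 between Leydig cells and MEF, a call lost without either iLC array or Leydig replicate 2 (highest adjusted p = 0.0795), with aligned low ends and with a pseudocount of 1. With 1 array left out that difference ranged from -3.79 to -2.49. Between iLC and Leydig cells Col5a2 differed by 1.95 ± 0.48 (SE), adjusted p = 0.0518, just over the threshold, and passed under 9 of 15 alternatives. Col5a1, its partner chain, read 28360.3 for MEF, 20652 and 10876 for the iLC pair and 12843 and 4519.8 for the Leydig pair with overlapping pairs, without passing (0.97 ± 0.58 (SE), adjusted p = 0.353 between iLC and Leydig cells). Col5a3 read 10845 for MEF, 12969 and 14368 for the iLC pair and 13734 and 4918 for the Leydig pair, with Leydig replicate 2 lowest and no difference past the test. Col11a1, a chain of the thin fibrils of cartilage, read 12771 for MEF, 8284 and 7511 for the iLC pair and 7311 and 2367 for the Leydig pair, again with Leydig replicate 2 lowest and no call.

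The fibrillar genes called between iLC and Leydig cells were Col2a1, Col24a1 and Col27a1. Col2a1, the main collagen of cartilage, read 2062 for MEF, 2431 and 2229 for the iLC pair and 426 and 655 for the Leydig pair. Its MEF and iLC readings lay together above both Leydig readings, and it differed by 2.11 ± 0.35 (SE), adjusted p = 0.0142 between iLC and Leydig cells and by -1.93 ± 0.42 (SE), adjusted p = 0.0482 between Leydig cells and MEF. Both calls were lost when any 1 of the 4 replicated arrays was left out (highest adjusted p = 0.0826 and 0.128), and the second also with aligned low ends and a pseudocount of 1. Of 8 measured cartilage cell markers 2, Acan and Sox5, were called below the Leydig level in iLC and none above it, and Acan, the cartilage proteoglycan, read 418 for MEF, 299 and 388 for the iLC pair and 1600.2 and 1651 for the Leydig pair. Col24a1, a minor fibrillar chain, read 1101 for MEF, 2332 and 1297 for the iLC pair and 309.8 and 133 for the Leydig pair (3.00 ± 0.50 (SE), adjusted p = 0.015 between iLC and Leydig cells), and its other probe gave 2.97. Col27a1, a chain of developing cartilage, read 477 for MEF, 665 and 798 for the iLC pair and 284 and 131 for the Leydig pair (1.82 ± 0.42 (SE), adjusted p = 0.0438). The pattern was the same for both, MEF between the iLC and Leydig readings. Col24a1 lost its call when iLC replicate 1 was left out, or Leydig replicate 2 (highest adjusted p = 0.0999), and Col27a1 without either iLC array or Leydig replicate 2 (highest adjusted p = 0.165), with aligned low ends and with a pseudocount of 1.

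Col6a1, Col6a3 and Col6a4, chains of type VI, had both iLC readings below the MEF and Leydig readings. Of the 6 beaded filament genes 2 were called below the Leydig level in iLC and none above it (median -1.41), 1 was higher in Leydig cells than in MEF, and none passed between iLC and MEF (median -1.55). These calls are 33.3% and 16.7% of the class, against 5.69% and 3.39% of all genes, and 0.571% of all genes passed between iLC and MEF. The first median lies midway between Col6a1 (-1.45) and Col6a5 (-1.38). Col6a5 lay under the 20th percentile of all 5 arrays and read -20.3 and 23.7 on the iLC arrays. That median therefore depends on dim readings, and it was -2.13 with a pseudocount of 1. Col6a3, a long chain of the type VI trimer, read 34497 for MEF, 4719 and 4361 for the iLC pair and 53231 and 18735 for the Leydig pair. Both iLC arrays lay far below the other 3, with -2.80 ± 0.52 (SE), adjusted p = 0.022 between iLC and Leydig cells and -2.92 ± 0.64 (SE), adjusted p = 0.113 between iLC and MEF, which did not pass. The call was lost without either iLC array or Leydig replicate 1 (highest adjusted p = 0.0984) and with aligned low ends, and the difference ranged from -3.55 to -2.04 with 1 array left out. Col6a1 read 120366 for MEF, 71419 and 37546 for the iLC pair and 192597 and 104368 for the Leydig pair, with both iLC arrays lowest and no call (-1.45 ± 0.47 (SE), adjusted p = 0.108 between iLC and Leydig cells, -1.22 between iLC and MEF). Col6a2, its partner chain and genomic neighbour, read 28485 for MEF, 18923 and 6766 for the iLC pair and 27137 and 7999.6 for the Leydig pair, where the iLC and Leydig pairs overlapped (-0.38 and -1.33, not past the test).

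Col6a4, a chain that can take the place of Col6a3 in the trimer, was dim on the iLC arrays and brighter on the Leydig arrays, with 742 for MEF, 168 and 249.7 for the iLC pair and 2910.1 and 2983 for the Leydig pair. MEF lay between the pairs. The difference was -3.74 ± 0.33 (SE), adjusted p = 0.00202 between iLC and Leydig cells, 1.97 ± 0.41 (SE), adjusted p = 0.0411 between Leydig cells and MEF and -1.78 ± 0.41 (SE), adjusted p = 0.125 between iLC and MEF. The call against MEF was lost when any 1 of the 4 replicated arrays was left out (highest adjusted p = 0.154). Promoter sequences are shown for 5 genes whose called differences ran in opposite directions, 3 higher in Leydig cells than in iLC (Col6a3, Col6a4 and Col15a1) and 2 lower (Col7a1 and Col8a1). They are the 250 bases before the annotated start in RefSeq (GRCm38.p6), read 5′ to 3′ along the gene's strand, at chr1:90843972-90844221, minus strand, and chr9:106096692-106096941, minus strand. Capitals mark matches on either strand to a set of short words. These were the CCAAT box, the GC box GGGCGG, the TATA word TATAAA, the word AAGGTCA that the factor Nr5a1 can bind, and the word AGATAA that Gata factors such as Gata4 can bind.
Col6a3: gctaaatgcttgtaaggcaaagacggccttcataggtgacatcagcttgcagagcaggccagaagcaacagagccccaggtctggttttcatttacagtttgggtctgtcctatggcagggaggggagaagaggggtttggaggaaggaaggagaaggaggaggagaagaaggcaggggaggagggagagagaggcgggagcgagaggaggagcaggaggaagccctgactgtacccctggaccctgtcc
Col6a4: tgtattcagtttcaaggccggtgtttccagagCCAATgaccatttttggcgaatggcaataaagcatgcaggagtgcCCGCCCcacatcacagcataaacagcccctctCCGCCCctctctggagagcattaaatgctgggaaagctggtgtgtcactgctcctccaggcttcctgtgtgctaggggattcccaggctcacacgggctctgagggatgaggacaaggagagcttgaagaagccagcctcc
The Col6a3 window held none of these words, and that of Col6a4 had the CCAAT box at 1 place and the GC box at 2. A match is a description of letters and not a site in use.

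The short-chain collagen Col8a1 was the 1 collagen gene called between iLC and MEF. Col8a1, whose product lies under endothelium and around smooth muscle, read 37894 for MEF, 1825 and 3299 for the iLC pair and 282 and 261 for the Leydig pair. The groups fell in the order MEF, iLC and Leydig with no overlap, by -3.94 ± 0.47 (SE), adjusted p = 0.0381 between iLC and MEF, 3.10 ± 0.38 (SE), adjusted p = 0.00558 between iLC and Leydig cells and -7.04 ± 0.47 (SE), adjusted p = 0.00227 between Leydig cells and MEF. The first of these ranged from -4.36 to -3.52 with 1 array left out, fits in which no gene was called in this comparison. Its call was lost with aligned low ends (-3.94) and with a pseudocount of 1 (-3.95), where the difference hardly moved. Under these settings the lower calls over all genes fell to 0 and 2 from 55. The Col8a1 call between iLC and Leydig cells was lost without Leydig replicate 2. The summed smooth muscle, fibroblast and macrophage markers, given above, lay in the same order of groups. Summed endothelial markers did not, with 7925 for MEF, 7533 and 8228 for the iLC pair and 15593 and 12204 for the Leydig pair. Most of the smooth muscle sum was Acta2, which read 466436 for MEF, 493313 and 439352 for the iLC pair and 29989 and 46397 for the Leydig pair. The MEF reading of Acta2 lay within the iLC pair, unlike that of Col8a1. The part of these markers in the Col8a1 difference was not tested. Col7a1, the chain of the anchoring fibrils that fasten epithelium to the matrix, read 8129.5 for MEF, 6353 and 12336 for the iLC pair and 837 and 587 for the Leydig pair. MEF lay within the iLC pair and both Leydig arrays below it, by 3.63 ± 0.43 (SE), adjusted p = 0.00472 between iLC and Leydig cells and -3.51 ± 0.52 (SE), adjusted p = 0.0152 between Leydig cells and MEF. The calls were lost without Leydig replicate 2 (highest adjusted p = 0.0648) and without either Leydig array (highest adjusted p = 0.103). The promoter windows of these genes, which differed the same way between iLC and Leydig cells, lie at chr9:108953336-108953585, plus strand, and chr16:57754738-57754987, minus strand, with the same words in capitals.
Col7a1: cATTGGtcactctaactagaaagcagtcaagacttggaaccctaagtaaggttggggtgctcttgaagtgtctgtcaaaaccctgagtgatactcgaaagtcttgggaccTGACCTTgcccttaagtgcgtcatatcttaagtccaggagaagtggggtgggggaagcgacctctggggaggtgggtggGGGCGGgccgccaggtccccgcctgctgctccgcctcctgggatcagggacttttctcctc
Col8a1: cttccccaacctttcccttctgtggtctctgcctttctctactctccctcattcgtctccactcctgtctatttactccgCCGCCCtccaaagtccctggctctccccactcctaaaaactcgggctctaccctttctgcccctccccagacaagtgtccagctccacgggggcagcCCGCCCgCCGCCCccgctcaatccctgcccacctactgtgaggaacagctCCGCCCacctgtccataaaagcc
The Col7a1 window had the CCAAT box, the GC box and the Nr5a1 word, at 1 place each, and the Col8a1 window had the GC box at 4 places.

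Of the 2 multiplexins, Col15a1 was called higher in Leydig cells than in both other groups. Col15a1, whose product lies at the outer side of basement membranes around vessels and muscle, read 2041 for MEF, 2999 and 3079 for the iLC pair and 33816 and 24454 for the Leydig pair. Both Leydig arrays stood far above the other 3, by 3.81 ± 0.40 (SE), adjusted p = 0.00582 over MEF, and iLC minus Leydig was -3.24 ± 0.33 (SE), adjusted p = 0.00282. Between iLC and MEF it differed by 0.57 ± 0.40 (SE), adjusted p = 0.555, and the call of Leydig cells over MEF was lost without Leydig replicate 2 (highest adjusted p = 0.0524). Its promoter window, at chr4:47207762-47208011, plus strand, held none of the 5 words.
Col15a1: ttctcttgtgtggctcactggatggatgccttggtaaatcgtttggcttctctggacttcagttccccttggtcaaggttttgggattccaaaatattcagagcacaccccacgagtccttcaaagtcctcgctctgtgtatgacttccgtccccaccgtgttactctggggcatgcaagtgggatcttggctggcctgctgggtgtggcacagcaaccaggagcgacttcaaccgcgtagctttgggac
Of all 32851 RefSeq windows of this length, 33.8% held the CCAAT box, 32.7% the GC box, 12.4% the TATA word, 4.08% the Nr5a1 word and 9.99% the Gata word, against 13, 21, 5, 5 and 2 of the 35 collagen genes with a window. These genes have 38 windows and each gene was counted once, so the collagen counts are of genes and the shares are of windows. Col18a1, the other multiplexin and the source of endostatin, read 13257 for MEF, 14593 and 7262 for the iLC pair and 20288 and 12240.3 for the Leydig pair, with overlapping pairs and no call. Endothelial markers, 7 measured, summed to 15593 and 12204 (Leydig), 7533 and 8228 (iLC) and 7925 (MEF). Cdh5, the cadherin of endothelial junctions, read 771 for MEF, 1216 and 1145 for the iLC pair and 10224 and 6399.7 for the Leydig pair, and made up most of the Leydig sums. It was the 1 of these 7 markers called higher in Leydig cells than in MEF. Emcn, an endothelial sialomucin, was called lower and read 2066 for MEF, 457 and 474 for the iLC pair and 396 and 403 for the Leydig pair, and Pecam1 read 1027 for MEF, 1337 and 1546 for the iLC pair and 1202 and 1143 for the Leydig pair. Their part in the Col15a1 reading was not tested.

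Basement membrane collagens had 1 call in the 3 comparisons. Of 6 type IV genes none passed between iLC and MEF or between iLC and Leydig cells, where 0.571% and 11.4% of all genes did. With 6 genes, an absence of calls is near these shares. In Leydig cells 1 was higher than in MEF (16.7%, against 3.39% of all genes). Col4a1 read 229783 for MEF, 213748 and 223379 for the iLC pair and 238307 and 216901 for the Leydig pair and Col4a2 279606 for MEF, 275883 and 274187 for the iLC pair and 313567 and 279817 for the Leydig pair. Their differences were -0.07 and -0.02 between iLC and MEF, -0.06 and -0.11 between iLC and Leydig cells and -0.02 and 0.08 between Leydig cells and MEF, with standard errors of 0.30 to 0.37. These 2 chains make up the common type IV trimer, and their genes stand head to head, with RefSeq starts 21 bases apart at chr8:11312826 and chr8:11312805 (GRCm38.p6). Col4a5 and Col4a6 are also head to head, on chromosome X, with starts 1343 bases apart. Col4a6 read 1804 for MEF, 5359 and 6178 for the iLC pair and 9571 and 9754 for the Leydig pair, lowest in MEF and highest in Leydig cells with no overlap, and passed between Leydig cells and MEF (2.41 ± 0.37 (SE), adjusted p = 0.0165) but not between iLC and MEF (1.66 ± 0.37 (SE), adjusted p = 0.117). Its other probe gave 1.70 and 1.22, and the call was lost without either Leydig array (highest adjusted p = 0.0875). Col4a5 read 12022 for MEF, 19836 and 21906 for the iLC pair and 18185 and 11344 for the Leydig pair, with differences of 0.26 between Leydig cells and MEF and 0.79 between iLC and MEF that did not pass, and 0.50 and 0.19 on its other probe.

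Col4a4 and Col4a3, neighbours on chromosome 1 and chains of the kidney filter, both read highest on Leydig replicate 1. Col4a4 read 2059 for MEF, 2766 and 2914 for the iLC pair and 10272 and 3539 for the Leydig pair, and Col4a3 340.3 for MEF, 286 and 335 for the iLC pair and 1240.2 and 404 for the Leydig pair. The Leydig arrays lay above the other 3 for both genes, without a call (1.54 and 1.03 between Leydig cells and MEF, adjusted p = 0.259 and 0.476). The 2 dim probes of Col4a4 gave 0.72 and 0.84 between Leydig cells and MEF, and between iLC and MEF they gave -0.99 and -1.20 against 0.46 for the probe used.

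Col26a1 and Col13a1 were also below their Leydig level in iLC. Col26a1, a chain described in testis and ovary, read 275 for MEF, 90.1 and 168 for the iLC pair and 2123 and 783 for the Leydig pair, with both Leydig arrays above the rest (-3.23 ± 0.55 (SE), adjusted p = 0.0163). Between Leydig cells and MEF it differed by 2.17 without passing (adjusted p = 0.132), and its call was lost when iLC replicate 1 was left out, or Leydig replicate 1 (highest adjusted p = 0.0908). The difference between iLC and Leydig cells ranged from -3.94 to -2.51 with 1 array left out and was -2.20 with the floor at the 20th percentile. Col13a1, a transmembrane collagen of adhesive junctions, read 193 for MEF, 106 and 92.9 for the iLC pair and 535 and 344 for the Leydig pair, under the median of every array (-1.95 ± 0.35 (SE), adjusted p = 0.0188). That difference was -0.65 with the floor at the 20th percentile (adjusted p = 0.244), and was not called with aligned low ends or when any 1 of the 4 replicated arrays was left out (highest adjusted p = 0.0931). The remaining 15 collagen genes had no call and no group mean of 3000 or more, with readings from -20.3 to 4005, and 10 of them lay under the array median on all 5 arrays. They are Col1a1, Col11a2, Col4a3, Col9a1, Col9a2, Col9a3, Col14a1, Col6a5, Col6a6, Col8a2, Col10a1, Col28a1, Col17a1, Col23a1 and Col25a1, and whether the dim ones were expressed cannot be told from intensities alone. Col14a1, a FACIT chain of loose connective tissue, held the highest of these readings, with 2536 for MEF, 1638 and 1745 for the iLC pair and 4005 and 1369.6 for the Leydig pair, where the second Leydig array was lowest and the first highest. Col23a1, a transmembrane chain, read 721 for MEF, 1638 and 1121 for the iLC pair and 1473 and 1093 for the Leydig pair, with MEF lowest and no call.

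The 2 Leydig arrays differed from each other over much of the family. Leydig replicate 1 read higher than replicate 2 for 37 of 44 collagen genes, or 84.1%, against 54.7% of all genes. The median log2 difference between these arrays was 0.62 for the collagens and 0.06 for all genes, and 16 collagen genes, or 36.4%, were higher on replicate 1 by more than 1 on the log2 scale, against 3.89% of all genes. Among the 11 fibrillar genes 8 were, with 9.24 times the intensity for Col3a1, 4.83 for Col1a2, 3.09 for Col11a1, 2.84 for Col5a1, 2.79 for Col5a3 and 2.48 for Col5a2. Col6a2 was higher 3.39 times, Col4a3 3.07, Col14a1 2.92, Col4a4 2.90, Col16a1 2.87 and Col6a3 2.84. Other members hardly differed, with ratios of 1.10 for Col4a1, 1.12 for Col4a2, 0.981 for Col4a6, 0.976 for Col6a4 and 0.872 for Col22a1. Some were higher on replicate 2, with ratios of 0.650 for Col2a1 and 0.210 for the dim Col9a3. By more than 1 on the log2 scale, 1 of 44 collagen genes was higher on replicate 2, against 1630 of all 19084 genes. On the same arrays the collagen synthesis genes described below had a median difference of 0.52, with 22 of 30 higher on replicate 1, and the macrophage markers 0.54, with 6 of 7. The fibroblast markers had a median difference of 0.32, smooth muscle markers 0.18, and germ cell markers -2.78, with 5 of 8 higher on replicate 2 by more than 1. On the iLC arrays the collagens had a median difference of -0.05, against -0.14 for all genes. The root mean square SD between arrays was 0.787 for collagens and 0.549 for all genes in the Leydig pair, and 0.454 and 0.459 in the iLC pair. A single MEF array gives no such comparison, and the part of the germ cell, macrophage and other transcripts in these differences was not tested.

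**Figure D3:**
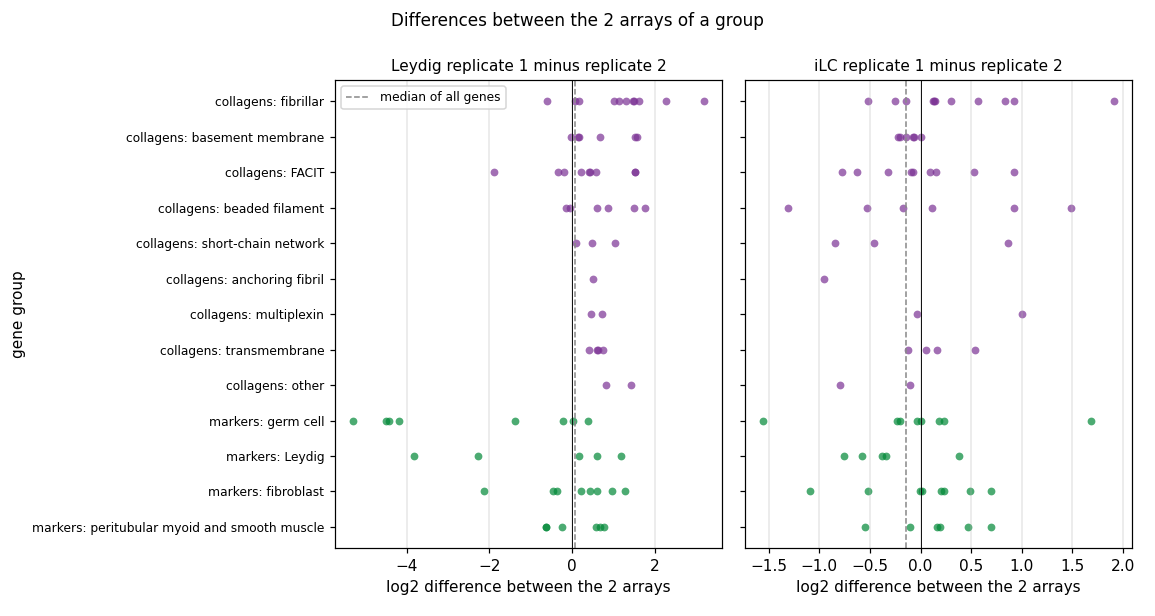
Log2 differences between the 2 arrays of a group (horizontal axis, separate scales), Leydig on the left and iLC on the right, for collagen genes by class (purple, 1 point a gene) and for markers of 4 cell types (green); the dashed line is the median of all genes, 0.06 and -0.14. On the left most collagen points lie right of the line, up to 3.20 for Col3a1, while Prm1 and 3 other germ cell markers lie far to its left.

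Chains are modified, folded, exported, trimmed and cross-linked by a set of enzymes and chaperones, of which 30 of 32 listed genes were measured. Of these, 9 were called above and 1 below Leydig cells in iLC (30% and 3.33%, against the 5.74% and 5.69% of all genes). In Leydig cells 1 was higher and 6 lower than in MEF (3.33% and 20%, against 3.39% and 3.99%). Against MEF iLC had 0 higher and 1 lower (0% and 3.33%, against 0.283% and 0.288%). Lox, which oxidises lysines for cross-links, read 125312 for MEF, 104922 and 93231 for the iLC pair and 1117 and 589 for the Leydig pair and differed by 6.90 ± 0.40 (SE), adjusted p = 0.00101 between iLC and Leydig cells. P4ha3, a catalytic subunit of prolyl 4-hydroxylase, read 4872 for MEF, 7225 and 4756 for the iLC pair and 215 and 141 for the Leydig pair (4.95 ± 0.38 (SE), adjusted p = 0.00153). Both Leydig readings of P4ha3 lay under their array's 20th percentile, so the size of that difference depends on dim readings. Pcolce2, an enhancer of the removal of the C-terminal propeptide, read 8091 for MEF, 10969.9 and 9956 for the iLC pair and 469 and 1342 for the Leydig pair (3.69 ± 0.52 (SE), adjusted p = 0.00843). Each of these had both iLC arrays and the MEF array above both Leydig arrays. Tll1, a protease that removes that propeptide, read 9949 for MEF, 3914 and 2465 for the iLC pair and 405 and 477 for the Leydig pair (2.78 ± 0.36 (SE), adjusted p = 0.00632), in the order MEF, iLC and Leydig. Plod2, a lysyl hydroxylase and the 1 gene lower in iLC, named for that count, went the other way with 9347 for MEF, 11981 and 11789 for the iLC pair and 62319.6 and 39706 for the Leydig pair (-2.06 ± 0.35 (SE), adjusted p = 0.016). Fkbp14, a foldase of the endoplasmic reticulum, was the 1 gene called between iLC and MEF, with 9426 for MEF, 814 and 935 for the iLC pair and 702 and 468 for the Leydig pair (-3.41 ± 0.42 (SE), adjusted p = 0.0394). It was high on the MEF array alone.

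Serpinh1, P4hb and Ppib, which act on many kinds of collagen chains, were not called in any of the 3 comparisons. Serpinh1, the collagen chaperone also called Hsp47, read 260380.0 for MEF, 228717 and 136657 for the iLC pair and 267710.0 and 87472 for the Leydig pair. P4hb, the shared subunit of prolyl 4-hydroxylase, read 339609 for MEF, 321604 and 191371 for the iLC pair and 260764 and 172953 for the Leydig pair, and Ppib, a proline isomerase, 191604 for MEF, 137423 and 168852 for the iLC pair and 197264 and 134877 for the Leydig pair. For these 3 genes, named after their values were seen, the second Leydig array was the lowest. With 1 array left out, fewer synthesis genes were called between Leydig cells and each of the other groups, and the call of Plod2 was lost. Calls over all genes fell in the same fits, as given below, so such losses were not limited to the synthesis genes.

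**Figure D4:**
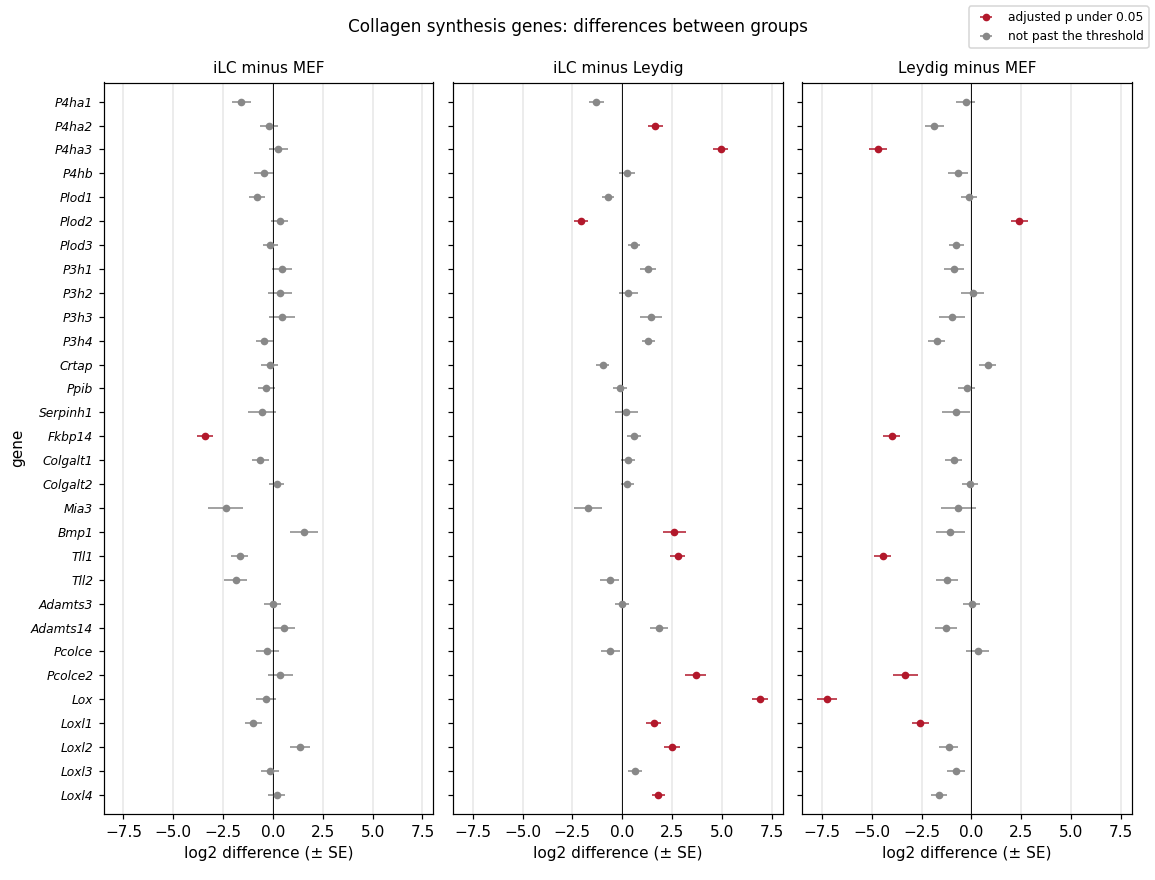
Log2 differences (± SE, horizontal axis) of the 30 measured collagen synthesis genes (vertical axis) in the 3 comparisons, with adjusted p under 0.05 in red. The middle panel has 9 red points right of 0, led by Lox at 6.90 and P4ha3 at 4.95, and 1 left of it, Plod2 at -2.06.

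Of 16 collagen receptors and fibril-binding proteoglycans, 4 were above the Leydig level in iLC, 3 were lower in Leydig cells than in MEF, and none passed between iLC and MEF. The first are 25% of the list, against 5.74% of all genes, and the second 18.8%, against 3.99%. Of all genes, 0.571% passed between iLC and MEF. Mrc2, which takes up collagen for breakdown, read 61563 for MEF, 36964 and 30109 for the iLC pair and 2351 and 1890.0 for the Leydig pair (3.97 ± 0.32 (SE), adjusted p = 0.00176). Itga11 and Itga1, subunits of collagen-binding integrins, differed by 2.80 and 2.43 between iLC and Leydig cells and by -2.71 and -2.96 between Leydig cells and MEF, all called. Itga1 read 157 and 156 on the Leydig arrays, under the 20th percentile of each, so the size of its differences depends on dim readings. Ddr1, a receptor kinase for collagen, stood highest on both iLC arrays, with 11083 for MEF, 36000.0 and 27967 for the iLC pair and 11223 and 12526 for the Leydig pair (1.42 ± 0.32 (SE), adjusted p = 0.0395 between iLC and Leydig cells, and 1.52 ± 0.39 (SE), adjusted p = 0.153 between iLC and MEF, not past the test). Ogn, a small fibril-binding proteoglycan, had the largest difference of this list between iLC and MEF (-2.24, adjusted p = 0.399) and read 13662 for MEF, 2951 and 2827 for the iLC pair and 60426 and 7238 for the Leydig pair. As with Col3a1, its Leydig arrays lay far apart, the first above the second.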

How the data were processed

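Each of 5 RNA samples went onto its own array after amplification and Cy5 labelling, per the labels' protocols. The authors deposited 1 linear intensity per probe and array. For background correction and normalization, methods were not given in the sources used here. With no detection calls the signal over background of a probe is unknown. The smallest value of an array ran from -47.3 to 48.0, so dim probes can differ through such an offset. Symbols came from the annotation of the platform, 21876 of 26423 with 1 symbol, 0 with several and 4547 with none; 21825 were matched by Entrez identifier to RefSeq gene names (GRCm38.p6), and 0 symbols differed. 0 columns belonged to no sample.

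Samples were grouped by their titles. From the deposited intensities log2 values were made here: values below 0 became 0 and 16 was added first. Limma 3.58.1 in R 4.3.3 fitted 1 mean per group over all 5 arrays (2 residual and 4.19 prior degrees of freedom; two-sided, Benjamini-Hochberg over 19084 genes). The fit was tested on simulated data. The collagen genes and all lists were chosen with earlier results of these data known, and nothing is adjusted over a list alone. Classes were read as counts and medians. Members called in a comparison or with a group mean of at least 3000 are named with every value; of the synthesis and receptor lists, up to 4 called members with the largest differences, or the 2 largest where none was called. The promoter words were searched on both strands with Python 3.11.15. The 15 alternatives were other scalings, pseudocounts, filters, a floor, the mean of all probes, an intensity trend, each iLC and Leydig array left out, and the replicate number as a block. Of 4 measured osteoblast markers 0 were called between Leydig cells and MEF, and of 8 Sertoli cell markers 2, Clu and Aard, were higher in Leydig cells.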

Additional observations from a re-analysis of the deposited data

How the results depend on the processing

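None of the 25 collagen calls changed direction under the 12 to 15 alternatives that could be run for each. The block leaves out MEF, and filters on intensity drop some dim genes. Between iLC and MEF the single lower collagen call became 2 with median centring and with quantile normalization, and 0 with aligned low ends and with a pseudocount of 1. Over all 19084 genes the calls in this comparison, 54 higher and 55 lower, became 131 and 215, 171 and 208, 6 and 0, and 7 and 2 under these settings. The single lower synthesis call became 0 with aligned low ends and with a pseudocount of 1. With 1 array left out, 0 of all genes were called by limma between iLC and MEF, where 2137 to 2881 had an unadjusted p under 0.05. Between iLC and Leydig cells 336 to 562 were higher and 368 to 761 lower, and between Leydig cells and MEF 77 to 430 were higher and 72 to 533 lower. Collagen calls in these fits ranged from 0 to 0 lower between iLC and MEF, from 1 to 8 higher and 3 to 5 lower between iLC and Leydig cells, and from 0 to 3 higher and 2 to 5 lower between Leydig cells and MEF. Synthesis calls ranged from 0 to 0 lower, from 3 to 5 higher and 0 to 0 lower, and from 0 to 0 higher and 1 to 5 lower, in the same order. Median differences over all genes between iLC and MEF were -0.11, and -0.16 with centring, 0.05 with quantile normalization and 0.12 with aligned low ends.

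The titles number the iLC and Leydig arrays 1 and 2, but the deviations of same-numbered arrays correlated across genes at only 0.0552, so the arrays were not treated as paired. With the number as a replicate block, 9 collagen genes were higher and 9 lower between iLC and Leydig cells, against 7 and 6, while calls over all genes went to 1485 and 1958 from 1095 and 1086. The lower synthesis calls went from 1 to 3. Col1a2, Col3a1, Col5a2 and Col6a1 were among the genes called with the block and not without it (limma, adjusted p = 0.0174, 0.00673, 0.000763 and 0.0201). The block fit gave each of these genes the same standard error, 0.489, so a gene's own spread did not enter its p-value. For Col3a1 the standard error was 1.10 without the block. Precision is limited by 5 arrays and by the unknown signal over background of dim probes.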
